A study of Mus musculus with 24 samples.

Results

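The genes described are 6 matrix metalloproteinases (Mmp2, Mmp3, Mmp9, Mmp10, Mmp13 and Mmp14) and the 4 tissue inhibitors of metalloproteinases (Timp1, Timp2, Timp3 and Timp4). They were chosen by name, with older synonyms accepted. All 10 were on the array, out of 19505 genes that could be matched, and they were read by 14 of its 41174 probes, with 3 probes for Timp1, a pair each for Mmp9 and Mmp14 and 1 for every other gene. Transcripts were measured on 24 one-color oligonucleotide arrays in immortalized mouse embryonic fibroblasts that lacked Ku70, a subunit of the complex that starts repair of DNA double-strand breaks by end joining. Every group carried this deletion, so that no wild-type array was available for comparison. The question put to the arrays was how bisphenol A (BPA), a plastic monomer with estrogenic activity, alters the response of these cells to potassium bromate (KBrO3), an oxidant that damages DNA bases.

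The first set held 15 arrays in 5 groups of 3 biological replicates, namely untreated control cells and, each at 4 and at 24 hr, KBrO3 alone or co-exposure to KBrO3 and BPA. KBrO3 was given at 20 mM for 1 hr. Co-exposed cells received 150 µM BPA for 1 hr beforehand, both agents for the next hr, and BPA until harvest. A second set of 9 arrays held its own untreated control and BPA alone at 150 µM, labeled 4 and 24 hr, again with 3 replicates in each group. The study's methods give times 1 hr longer for BPA alone. Controls of the first set were labeled 4 hr and those of the second carried no time, so that for every 24 hr group the treatment and the later harvest cannot be told apart. All groups came from 1 immortalized line, and in RNA from whole cultures fewer expressing cells and less RNA per cell cannot be told apart.

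Matrix metalloproteinases are zinc-dependent endopeptidases that cleave extracellular matrix and many cell surface and signaling proteins. Most are made as inactive proenzymes, secreted or anchored at the membrane, and are switched on when the propeptide is removed, often by plasmin or by another metalloproteinase. Fibroblasts are a main source of these enzymes in connective tissue, and several of the genes are known to be induced by cytokines, growth factors and stress through the transcription factor AP-1. TIMPs bind the active site of the mature enzymes and block it, and TIMP-2 also takes part in the activation of pro-MMP-2 by MMP-14 at the cell surface.

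Levels are log2 processed signals relative to the 75th percentile of the same array, so that 0 is that percentile and a difference of 1 is a 2-fold change. A level shows how a probe varied among arrays, and levels of different genes were not ranked against each other. A difference was called when the adjusted p (limma, Benjamini-Hochberg over all probes of the set) was below 0.05, and only such genes are said to have risen or fallen. A gene was called altered by the threshold of the study's methods, which asks for more than 1.5-fold and a p under 0.01 after Bonferroni correction. Here that threshold was applied to the limma p. The study took its p from an error-weighted ANOVA, so that its own calls can differ from these. Between 57.7% and 68.1% of spots were well above background on arrays of the first set and between 76.4% and 79.4% on those of the second. The residual SD of a probe was 0.106 at the median among arrays of the first set and 0.318 among those of the second, so that smaller changes could pass in the first set. The arrays lay on 5 slides in each set. In the first set KBrO3 alone at 4 hr shared a slide with 1 control, and the other 3 treated groups shared none with any control. The co-exposed cells at 4 hr shared none with KBrO3 alone at 4 hr either. In these comparisons slide and treatment cannot be told apart, nor in the differences of differences that contain them.

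The fibroblast label was checked against 12 marker genes, all of which were well above background on every control array of both sets. Their summed signal lay between 10.94 and 11.02 in the first set's controls, between 10.81 and 10.88 after KBrO3 alone and 10.51 and 10.54 after co-exposure at 4 hr, between 9.58 and 9.74 after KBrO3 alone at 24 hr and between 9.08 and 9.28 after co-exposure at 24 hr. In the second set it was 9.69 to 9.83 in controls, 9.63 to 9.86 after BPA alone at 4 hr and 9.34 to 9.56 at 24 hr, the last below control without overlap. Among markers of other cell types, Ptprc (leukocytes) and Pecam1 (endothelium) were not well above background on any of the 24 arrays, whereas some broadly expressed markers such as Cd68 and Lyz2 were above it on all. The summed signal of 5 neutrophil markers lay between -1.74 and -1.51 in the first set's controls, between -0.14 and -0.07 after KBrO3 alone and between 0.51 and 0.69 after co-exposure at 4 hr. Of these, Csf3r, S100a9 and Elane stayed at background on all 15 arrays of the first set, and the part of the others in the 4 hr results was not tested. The summed signal of 5 endothelial markers lay between -2.46 and -2.11 in these controls, and between -1.90 and -1.74 after KBrO3 alone and -1.85 and -1.60 after co-exposure at 4 hr. That of 6 epithelial markers was -2.37 to -1.96 in controls, and -1.95 to -1.45 after KBrO3 alone and -1.68 to -1.55 after co-exposure at 4 hr. That of 8 macrophage markers was 1.59 to 1.66 in controls and 1.23 to 1.27 after co-exposure at 4 hr. After co-exposure at 24 hr the endothelial sum, -2.68 to -2.59, and the epithelial sum, -2.77 to -2.46, lay below control. After KBrO3 alone at 24 hr the macrophage sum, 1.41 to 1.53, and the neutrophil sum, -2.78 to -2.38, did so. The part of these shifts in the results was not tested. After co-exposure at 4 hr 10 of the 12 fibroblast markers fell (median -0.53), where 37% of all probes fell with a median of 0.08, and 7 were lower there than after KBrO3 alone, as were 28.6% of all probes. The part of this decline in the results at 4 and 24 hr was not tested.

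Of the 10 genes, 9 had a probe of highest signal that could be tested, that is, one detected above background on all 3 arrays of some group. Mmp9 did not and is described by its values. After KBrO3 alone at 4 hr, 5 of the 9 genes were called, Mmp10, Timp1, Timp2 and Timp3 higher and Mmp14 lower. The background was high, since 72.1% of all tested probes were called in that comparison, 36.3% higher and 35.8% lower. Mmp10 and Timp1 were altered by the methods' threshold, which 28.8% of all probes passed.

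At 24 hr after KBrO3 alone, all 9 tested genes were called, Mmp10 higher and the other 8 lower, against 66.2% of all probes, 32.1% higher and 34% lower. The methods' threshold was passed by 6 of them, against 16.8% of all probes. With normexp background correction Mmp13 (-0.24, adjusted p = 0.18), Timp1 (-0.31, adjusted p = 0.11) and Timp3 (-0.31, adjusted p = 0.21) were not called there, nor was Timp1 after co-exposure at 24 hr (-0.35, adjusted p = 0.076). Co-exposure at 4 hr gave 8 calls, 6 higher and Mmp14 and Timp4 lower, where 78.6% of all probes were called, 41.6% higher and 37% lower. In that comparison 4 genes, Mmp3, Mmp10, Mmp13 and Timp1, were altered, against 32.6% of all probes. After co-exposure at 24 hr all 9 genes were called again, with Mmp10 higher and 8 lower, against 69.9% of all probes, 32.9% higher and 37% lower. Of the 9, 8 were altered, against 20.8% of all probes. These 4 comparisons share the same 3 control arrays, and their values are therefore given side by side and not as independent results.

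**Figure D1:**
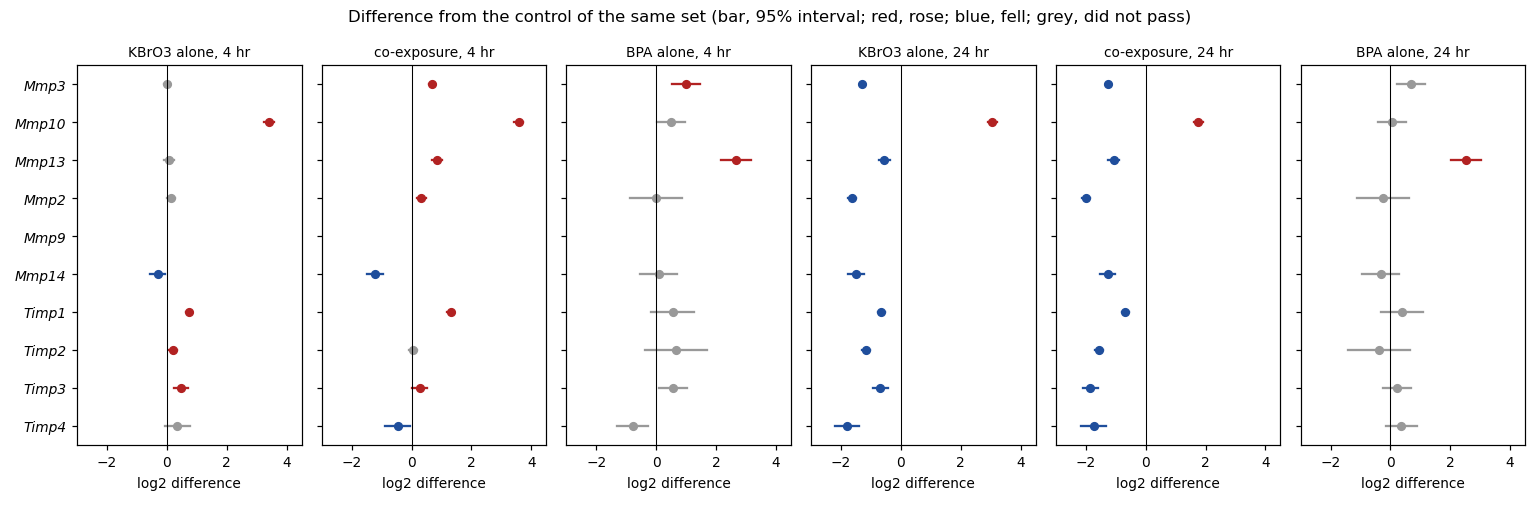
Log2 difference from the controls of the same set (horizontal axis) for the tested genes (vertical axis) in each treatment, with 95% confidence intervals as bars; red marks genes that rose, blue genes that fell and grey genes that did not pass an adjusted p of 0.05. Mmp10 lies to the right of 0 in all 4 groups that received KBrO3, while the other genes lie to the left of 0 at 24 hr in those groups, and Mmp13 has the largest rise in both groups given BPA alone.

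The stromelysins MMP-3 and MMP-10 cleave proteoglycans, fibronectin and several proenzymes, and MMP-13 is the main interstitial collagenase of the mouse. Their genes lie in 1 cluster on chromosome 9. RefSeq promoters of GRCm38.p6 were on hand for 8 of the 10 genes, all but Mmp2 and Mmp9, and were searched on both strands for 3 motifs in the 250 bases before the start. The AP-1 motif TGANTCA was found in 3 of the 8, which were Mmp3, Mmp10 and Mmp13, and in 6.7% of 32851 promoters of the same length. The 3 windows are shown because these were the enzyme genes altered upward by co-exposure at 4 hr, and capitals mark the AP-1 match. All are printed 5′ to 3′ on the + strand, Mmp3 from chr9:7445572-7445821, Mmp10 from chr9:7502092-7502341 and Mmp13 from chr9:7272264-7272513.
Mmp3: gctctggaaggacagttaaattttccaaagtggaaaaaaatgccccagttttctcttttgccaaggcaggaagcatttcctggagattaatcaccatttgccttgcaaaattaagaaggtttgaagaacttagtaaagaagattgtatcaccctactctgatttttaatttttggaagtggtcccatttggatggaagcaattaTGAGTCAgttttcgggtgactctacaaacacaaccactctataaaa
Mmp10: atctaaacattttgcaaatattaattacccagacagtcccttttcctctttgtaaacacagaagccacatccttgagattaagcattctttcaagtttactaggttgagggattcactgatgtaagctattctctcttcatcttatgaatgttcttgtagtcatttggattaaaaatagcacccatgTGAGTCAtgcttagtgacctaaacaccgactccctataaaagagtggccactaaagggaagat
Mmp13: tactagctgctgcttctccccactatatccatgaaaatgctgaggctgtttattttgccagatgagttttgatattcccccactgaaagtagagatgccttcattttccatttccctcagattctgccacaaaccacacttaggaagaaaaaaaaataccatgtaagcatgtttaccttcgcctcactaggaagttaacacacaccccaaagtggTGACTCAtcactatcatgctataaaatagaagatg

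The match began 46 bases before the start in Mmp3, 63 in Mmp10 and 35 in Mmp13, and the matched letters were TGAGTCA in Mmp3 and Mmp10 and TGACTCA in Mmp13. The NF-kB motif was found in 3 of the 8 promoters, Timp1, Timp3 and Timp4, where 45.8% of all promoters held it. The antioxidant response motif TGANNNNGC was found in 4, Mmp13, Mmp14, Timp2 and Timp4, where 35.2% of all promoters held it. These are matches of letters, and binding of a factor was not measured.

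Mmp10 had the largest rise of the tested genes in the comparisons with control. Its level was -3.91, -3.83 and -3.83 in the controls and -0.41, -0.44 and -0.47 after KBrO3 alone at 4 hr, a rise of 10.7-fold (log2 difference 3.41 ± 0.07 SE, adjusted p = 1.3e-12). At 24 hr it was -0.71, -0.81 and -0.90, still 8.29-fold above control (log2 difference 3.05, adjusted p = 8.3e-12). None of these arrays overlapped the controls, and the replicates of each group lay within 0.2 of each other.

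In co-exposed cells Mmp10 was -0.29, -0.29 and -0.26 at 4 hr and -2.14, -2.22 and -1.92 at 24 hr, 11.9-fold and 3.40-fold above control. Adding BPA to KBrO3 therefore gave a difference of 0.17 at 4 hr, which did not pass (95% interval 0.01 to 0.32, adjusted p = 0.066), although all 3 co-exposed arrays lay above all 3 of KBrO3 alone and it did pass in 5 alternatives. These were the fits without co-exposed array 2 or 3 of 24 hr (adjusted p = 0.043 and 0.012) or with only the arrays compared (adjusted p = 0.0038), scaling to well detected spots (0.22, adjusted p = 0.030) and quantile normalization (0.17, adjusted p = 0.039). At 24 hr Mmp10 was 2.44-fold lower in co-exposed cells than after KBrO3 alone (log2 difference -1.29, adjusted p = 4.8e-08), with no overlap. The difference made by BPA changed by -1.45 from 4 to 24 hr (adjusted p = 8.1e-07). With normexp background correction the rises after KBrO3 alone were 1.48 and 1.15, still called, but that after co-exposure at 24 hr was 0.05 (adjusted p = 0.90). The difference from KBrO3 alone at 24 hr was then -1.09 (adjusted p = 0.099) and the change of the BPA difference -1.25 (adjusted p = 0.20).

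With BPA alone, Mmp10 was not called at either time. The controls of the second set read -4.42, -4.91 and -4.49, the arrays of BPA alone -4.04, -4.31 and -3.94 at 4 hr and -4.74, -4.42 and -4.49 at 24 hr. The differences were 0.51 (95% interval 0.03 to 0.98, adjusted p = 0.23) and 0.06 (-0.41 to 0.53, adjusted p = 0.92). The first passed only with all 24 arrays in 1 fit (adjusted p = 0.0063). All 3 arrays at 4 hr lay above the 3 controls, and those at 24 hr overlapped them.

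At 4 hr Mmp3 was not called after KBrO3 alone and rose in the groups given BPA. Its level was 6.62, 6.59 and 6.59 in the controls and 6.62, 6.58 and 6.60 after KBrO3 alone at 4 hr, a log2 difference of -0.00 (95% interval -0.10 to 0.09) that became a fall of -0.42 with quantile normalization (adjusted p = 1.1e-04) and of -0.14 with scaling to well detected spots (adjusted p = 0.022). In co-exposed cells at 4 hr it was 7.31, 7.29 and 7.27, above every control and every array of KBrO3 alone. It had risen 1.61-fold against control (log2 difference 0.69, adjusted p = 1.5e-08) and by the same 1.61-fold against KBrO3 alone (adjusted p = 2.0e-07). Mmp3 was the only one of the 9 genes that was altered by the methods' threshold in this last comparison.

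At 24 hr Mmp3 had fallen to 5.39, 5.31 and 5.23 after KBrO3 alone and to 5.36, 5.30 and 5.40 after co-exposure. These are 2.45-fold and 2.38-fold below control (adjusted p = 1.4e-10 and 1.1e-10), and the groups overlapped each other, with a difference of 0.04 (95% interval -0.05 to 0.14). After BPA alone Mmp3 was 3.79, 3.77 and 3.98 at 4 hr and 3.48, 3.40 and 3.71 at 24 hr, against 2.81, 3.16 and 2.55 in its controls. All 6 arrays lay above all 3 controls. The rise at 4 hr was 2.00-fold (log2 difference 1.00, 95% interval 0.53 to 1.48, adjusted p = 0.031), and the value at 24 hr, 0.69 (0.22 to 1.16), did not pass (adjusted p = 0.12). The call at 4 hr was lost when any 1 of the BPA arrays at 4 hr, control 1 or control 3 was left out, with differences between 0.86 and 1.04 and adjusted p between 0.072 and 0.15. It was also lost with normexp (adjusted p = 0.56), slide as a fixed block (0.34), scaling to the median (0.087), the replicate block (0.086), only the arrays compared (0.064) and no filter (0.051). The call held in 13 of 24 alternatives.

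Mmp13 was the gene that responded most to BPA alone. The controls of the second set read -2.40, -2.25 and -2.23, the arrays of BPA alone 0.49, 0.11 and 0.52 at 4 hr and -0.14, 0.43 and 0.39 at 24 hr. Every treated array lay above every control by more than 2 on the log2 scale. The rise was 6.35-fold at 4 hr (log2 difference 2.67, 95% interval 2.18 to 3.16, adjusted p = 5.5e-04), and at 24 hr it was 5.75-fold (2.52, 2.03 to 3.01, adjusted p = 0.0022). Neither passed the methods' threshold. Within slides the difference was 2.90 at 4 hr on the slide with 2 treated arrays and 1 control, and 2.11 and 2.67 at 24 hr on the slides with 1 of each. With slide as a fixed block the adjusted p became 0.16 and 0.069, and with normexp background correction the differences were 2.00 and 1.94 (adjusted p = 0.19 and 0.18).

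In the first set Mmp13 started from a higher control level, 2.49, 2.43 and 2.38, and did not pass after KBrO3 alone at 4 hr, where it read 2.53, 2.51 and 2.49 (difference 0.08, 95% interval -0.10 to 0.25). Co-exposure at 4 hr gave 3.28, 3.24 and 3.36, above all other groups of the set. That was a rise of 1.81-fold against control (log2 difference 0.86, adjusted p = 8.1e-07) and of 1.72-fold against KBrO3 alone (0.78, adjusted p = 9.4e-06). At 24 hr the direction was the opposite one, with 1.86, 1.97 and 1.82 after KBrO3 alone and 1.25, 1.25 and 1.59 after co-exposure. These were 1.47-fold and 2.10-fold below control, and the co-exposed cells were 1.43-fold below KBrO3 alone (log2 difference -0.52, adjusted p = 2.3e-04). The change in the BPA difference from 4 to 24 hr was -1.30 (adjusted p = 4.4e-06).

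**Figure D2:**
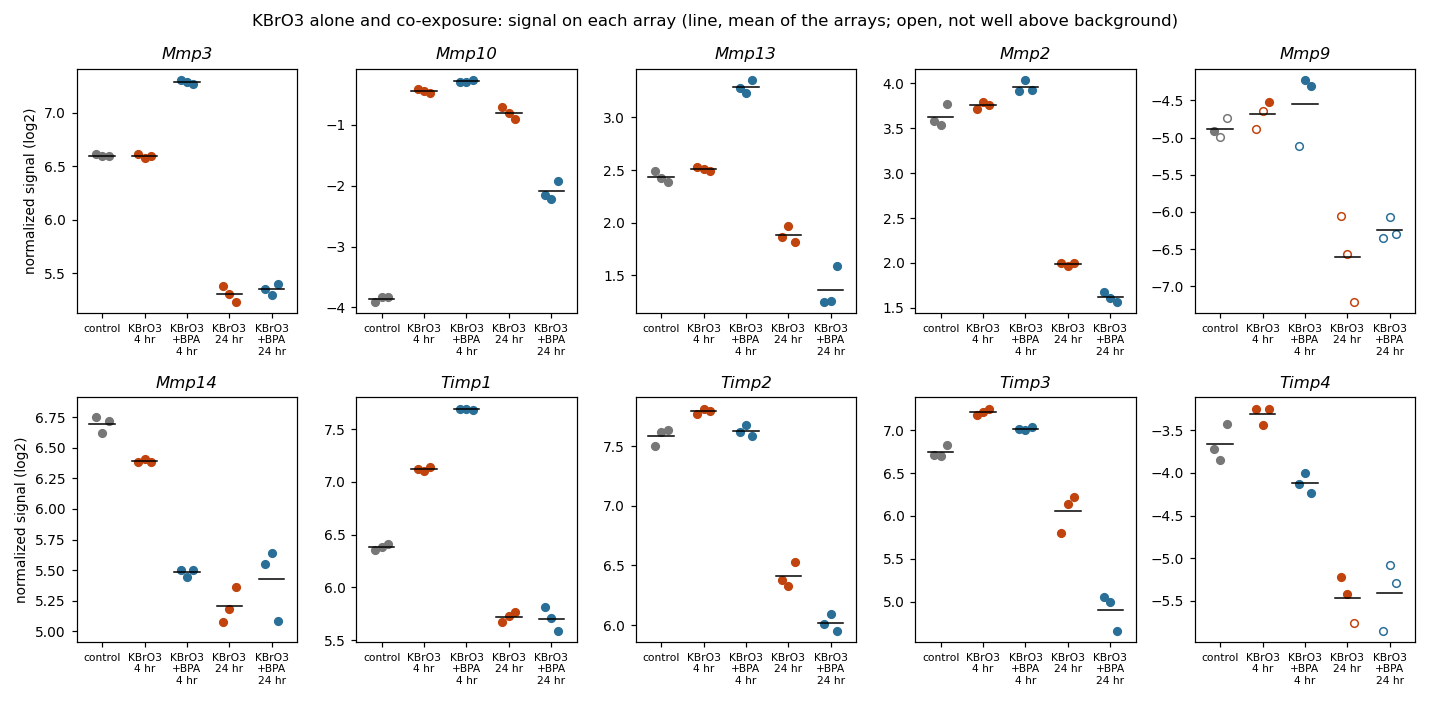
Log2 normalized signal (vertical axes, each with its own range) of the 10 genes on the 15 arrays of the first set, by group (horizontal axes); points are arrays, lines are group means, and open points were not well above background. Mmp10 is raised in all 4 groups that received KBrO3, Mmp3, Mmp13 and Timp1 are highest after co-exposure at 4 hr, and most genes are lowest at 24 hr.

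**Figure D3:**
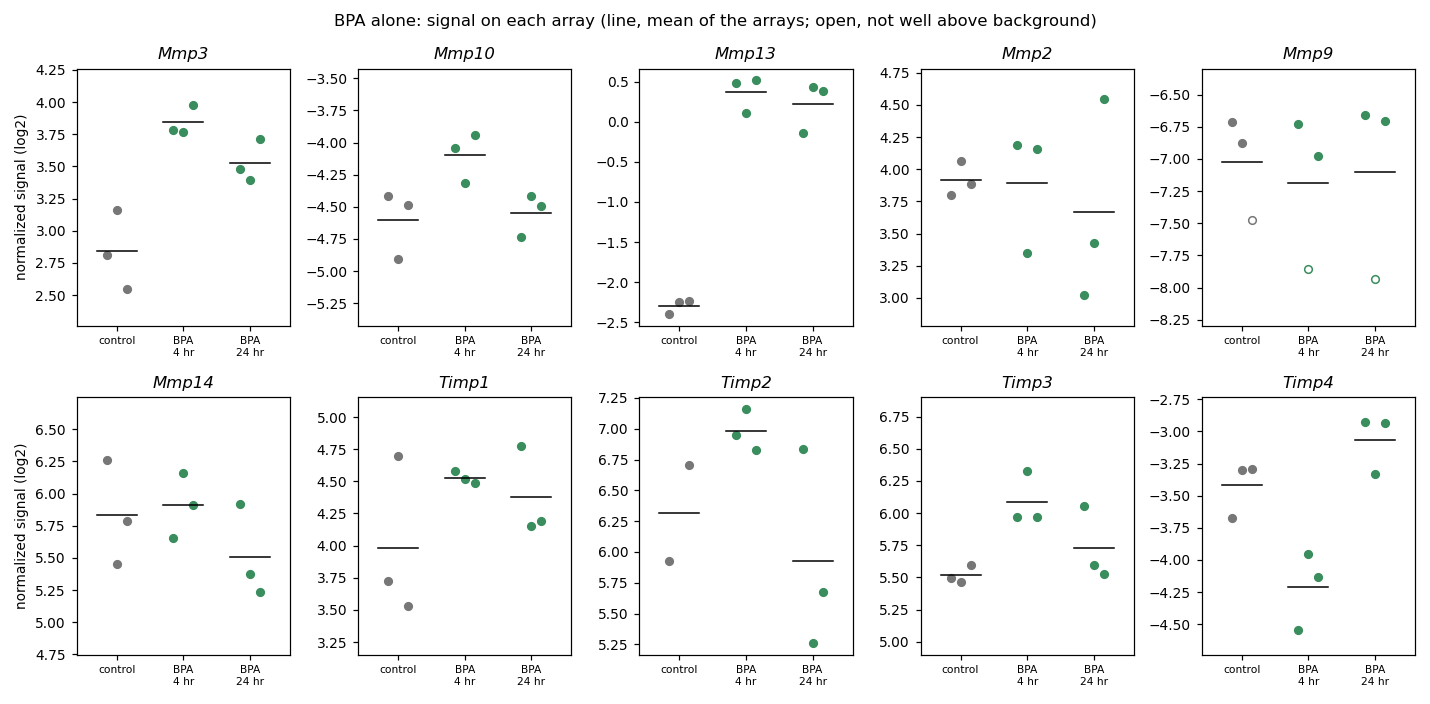
The same plot for the 9 arrays of the second set, with log2 normalized signal on the vertical axes and the control and BPA alone at 4 and 24 hr on the horizontal axes. Mmp13 separates from control at both times, Mmp3 lies above its controls in all 6 treated arrays, and Mmp2, Timp1 and Timp2 overlap in most groups.

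The gelatinases MMP-2 and MMP-9 degrade denatured collagen and basement membrane collagen. Mmp2 read 3.58, 3.53 and 3.77 in the controls and 3.72, 3.79 and 3.76 after KBrO3 alone at 4 hr, a difference of 0.13 that did not pass (95% interval -0.00 to 0.27) except without control 3 (0.20, adjusted p = 0.0042). Co-exposure at 4 hr gave 3.91, 4.04 and 3.92, a small rise of 1.26-fold against control (adjusted p = 3.2e-04) and of 1.15-fold against KBrO3 alone (adjusted p = 0.014). At 24 hr Mmp2 showed one of the largest declines of the 10 genes. It read 2.00, 1.97 and 2.00 after KBrO3 alone and 1.68, 1.61 and 1.57 after co-exposure, 3.11-fold and 4.02-fold below control (log2 differences -1.64 and -2.01, adjusted p = 4.2e-10 and 4.2e-11). The co-exposed arrays lay below those of KBrO3 alone by 0.37 without overlap (adjusted p = 3.9e-04). That call was lost with scaling to the median (-0.20, adjusted p = 0.062), normexp (-0.33, adjusted p = 0.37) and all 24 arrays in 1 fit (adjusted p = 0.38). After BPA alone its replicates were spread widely, 4.19, 3.35 and 4.15 at 4 hr and 3.02, 3.43 and 4.55 at 24 hr around controls of 3.80, 4.07 and 3.89, and neither difference passed.

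Mmp9 was close to the limit of detection. Its probe of higher signal was well above background on 1 of 3 control arrays, 1 of 3 after KBrO3 alone at 4 hr, 2 of 3 after co-exposure at 4 hr and none of the 6 arrays at 24 hr. It read -4.912, -4.998 and -4.740 in the controls, -4.89, -4.65 and -4.52 after KBrO3 alone and -5.11, -4.22 and -4.31 after co-exposure at 4 hr, so that the groups overlapped. The 24 hr arrays read -6.06, -6.56 and -7.21 after KBrO3 alone and -6.36, -6.07 and -6.30 after co-exposure, and no fold is given because most arrays on both sides were not well above background. In the second set the probe of higher signal was well above background on 2 of 3 arrays in each group. It read -6.71, -6.87 and -7.48 in the controls, -6.73, -7.85 and -6.98 after BPA alone at 4 hr and -6.66, -7.94 and -6.70 at 24 hr, so that the groups overlapped. In the first set the other probe passed the filter only through the co-exposed cells at 4 hr, with -4.71, -4.54 and -4.56 there, against -5.78, -6.01 and -5.81 in controls where it was not well above background. That is at least 1.80-fold higher, and since the probe could be tested only because it was high in that group, the difference is given as a description.

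MMP-14 is a membrane-anchored collagenase and the activator of pro-MMP-2. Of the 5 metalloproteinase genes tested among the 10, Mmp14 was the one called lower at 4 hr. It read 6.75, 6.62 and 6.72 in the controls and 6.39, 6.41 and 6.38 after KBrO3 alone at 4 hr, a fall of 1.24-fold (log2 difference -0.30, adjusted p = 0.037). Its second probe gave -0.07 in that comparison (adjusted p = 0.37), so that this small fall was not seen by both probes. The call was lost in the mean of both (-0.19, adjusted p = 0.065) and with normexp (-0.0075, adjusted p = 0.98). It was lost with all 24 arrays in 1 fit (adjusted p = 0.20), scaling to the median (0.089) and the replicate block (0.057). Leaving out any 1 array of KBrO3 alone at 4 hr, control 1 or control 3 lost it too (-0.28 to -0.31, adjusted p between 0.067 and 0.098). In co-exposed cells at 4 hr Mmp14 read 5.50, 5.44 and 5.50, 2.33-fold below control (log2 difference -1.22, adjusted p = 1.1e-06) and 1.88-fold below KBrO3 alone (-0.91, adjusted p = 5.4e-05). The second probe fell in both comparisons too, by 0.66 and 0.59.

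At 24 hr Mmp14 read 5.07, 5.18 and 5.36 after KBrO3 alone, and co-exposure gave 5.55, 5.64 and 5.08. They were 2.82-fold and 2.42-fold below control (adjusted p = 3.3e-07 and 1.1e-06) and overlapped each other. The co-exposed level at 24 hr differed from that at 4 hr by -0.06 (95% interval -0.32 to 0.21), but it was called higher with scaling to the median (0.40, adjusted p = 0.026) and with quantile normalization (0.23, adjusted p = 0.035). The BPA difference thus changed by 1.13 from 4 to 24 hr, in the direction opposite to that of the other metalloproteinases tested (adjusted p = 1.9e-04). At 24 hr the second probe read 1.88 on average after KBrO3 alone and 1.78 after co-exposure, against 2.66 in the controls. These falls were smaller and in the opposite order. The second probe also gave a smaller change of the BPA difference, 0.50 (adjusted p = 9.5e-04), and a called fall of 0.22 from 4 to 24 hr in co-exposed cells (adjusted p = 0.0079). BPA alone gave 5.65, 6.16 and 5.91 at 4 hr and 5.92, 5.38 and 5.24 at 24 hr around controls of 6.26, 5.45 and 5.78, and neither difference passed.

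TIMP-1 is the inducible, secreted inhibitor of most soluble metalloproteinases. Timp1 read 6.35, 6.39 and 6.41 in the controls, 7.12, 7.10 and 7.15 after KBrO3 alone at 4 hr and 7.70, 7.70 and 7.68 after co-exposure at 4 hr. The 3 groups were fully separate and their replicates lay within 0.1 of each other. The rise was 1.67-fold after KBrO3 alone (log2 difference 0.74, adjusted p = 4.6e-08) and 2.47-fold after co-exposure (1.31, adjusted p = 1.9e-10), and co-exposed cells were 1.48-fold above KBrO3 alone (0.57, adjusted p = 3.3e-06). At 24 hr Timp1 had fallen below control in both treatments, to 5.67, 5.73 and 5.77 and to 5.81, 5.71 and 5.59. These are 1.58-fold and 1.60-fold falls, and co-exposure differed from KBrO3 alone by -0.02 (95% interval -0.13 to 0.09), which became a called -0.19 with quantile normalization (adjusted p = 3.2e-04). The other 2 probes of Timp1 gave the same calls against control in all 4 comparisons, with rises of 0.77 to 1.44 at 4 hr and falls of 0.67 to 0.83 at 24 hr. After BPA alone Timp1 read 4.58, 4.52 and 4.49 at 4 hr and 4.77, 4.15 and 4.20 at 24 hr, against controls of 3.72, 4.70 and 3.53, and control 2 lay above all the arrays at 4 hr. The differences, 0.55 (-0.16 to 1.25) and 0.39 (-0.31 to 1.10), did not pass.

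TIMP-2 is made constitutively by many fibroblasts. Timp2 read 7.50, 7.62 and 7.63 in the controls and 7.77, 7.82 and 7.80 after KBrO3 alone at 4 hr, a rise of 1.16-fold (log2 difference 0.21, adjusted p = 0.0071) that turned to -0.10 with quantile normalization (adjusted p = 0.12). Against the 1 control on the same slide the difference was 0.16, and with slide as a fixed block it did not pass (adjusted p = 0.11). Co-exposed cells at 4 hr gave 7.62, 7.68 and 7.59, which overlapped the controls (difference 0.04, and -0.15 with quantile normalization, adjusted p = 0.022). The decline at 24 hr was larger, to 6.37, 6.32 and 6.53 after KBrO3 alone and 6.01, 6.09 and 5.95 after co-exposure, 2.26-fold and 2.97-fold below control (adjusted p = 5.4e-09 and 2.6e-10). Co-exposed arrays lay below KBrO3 alone by 0.39 (adjusted p = 1.8e-04), a call lost with scaling to the median (-0.22, adjusted p = 0.064), normexp (adjusted p = 0.19) and all 24 arrays in 1 fit (adjusted p = 0.36). With BPA alone the level was 6.95, 7.16 and 6.83 at 4 hr and 6.84, 5.26 and 5.68 at 24 hr, against 5.93 and 6.70 in the 2 controls whose spot was kept, the spot of control 1 having been called an outlier. Neither difference passed.

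TIMP-3 binds to the extracellular matrix and also inhibits ADAM proteases. Timp3 read 6.72, 6.70 and 6.82 in the controls, 7.18, 7.21 and 7.26 after KBrO3 alone at 4 hr and 7.022, 7.004 and 7.040 after co-exposure. These rises, 1.38-fold (log2 difference 0.47, adjusted p = 0.0022) and 1.21-fold (0.28, adjusted p = 0.038), depended on scaling, since quantile normalization gave -0.00 and -0.12 with neither past the threshold. The second was also lost without any 1 co-exposed array, control 1 or control 2 (0.25 to 0.29, adjusted p between 0.068 and 0.098). At 24 hr Timp3 was 5.80, 6.14 and 6.22 after KBrO3 alone and 5.048, 4.998 and 4.657 after co-exposure. The co-exposed cells were 3.59-fold below control (log2 difference -1.84, adjusted p = 1.9e-08) and 2.22-fold below KBrO3 alone (-1.15, adjusted p = 4.9e-06), with no overlap, while KBrO3 alone was 1.62-fold below control (adjusted p = 1.5e-04). On the slide that held 2 arrays of each treatment the difference between them was -1.16. BPA alone gave 5.97, 6.33 and 5.97 at 4 hr, above all controls of 5.50, 5.47 and 5.59, but the difference of 0.57 (95% interval 0.10 to 1.04) did not pass (adjusted p = 0.18). The arrays at 24 hr, 6.05, 5.59 and 5.53, overlapped the controls.

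TIMP-4 is the inhibitor with the most restricted tissue range, and Timp4 was dim here. It read -3.72, -3.85 and -3.42 in the controls, -3.25, -3.44 and -3.25 after KBrO3 alone at 4 hr, a difference of 0.35 that did not pass (95% interval -0.06 to 0.77), and -4.12, -4.00 and -4.24 after co-exposure at 4 hr. The co-exposed level was 1.37-fold below control (log2 difference -0.46, adjusted p = 0.043) and 1.75-fold below KBrO3 alone (-0.81, adjusted p = 0.0033). With slide as a random block these adjusted p were 0.12 and 0.088. The second call was also lost with normexp (-0.39, adjusted p = 0.71), and the first was kept in only 15 of 28 alternatives (adjusted p up to 0.16). The call against control was lost without any 1 array of KBrO3 alone at 4 hr, array 2 of KBrO3 alone at 24 hr, co-exposed array 1 or 3 of 4 hr or array 3 of 24 hr, or control 1 or 3 (-0.34 to -0.49), and with the replicate block (adjusted p = 0.065), with no filter (0.064) and with all 24 arrays in 1 fit (0.053). At 24 hr Timp4 read -5.22, -5.42 and -5.76 after KBrO3 alone, of which 2 of 3 arrays were well above background, a fall of 3.49-fold (adjusted p = 3.9e-06). No co-exposed array at 24 hr was well above background, and the fall there was at least 2.95-fold (adjusted p = 4.4e-06). After BPA alone the direction differed between the times. Levels of -4.55, -3.95 and -4.13 at 4 hr lay below all controls, which read -3.67, -3.30 and -3.29 (difference -0.79, adjusted p = 0.096), and those at 24 hr were -2.93, -3.33 and -2.93 (0.36, adjusted p = 0.45). Between 4 and 24 hr of BPA alone Timp4 rose 2.21-fold (log2 difference 1.15, adjusted p = 0.028), the 1 call among the 9 genes in that comparison, in which 3.79% of all probes were called, 1% higher and 2.79% lower, and no member was altered, against 0.0377%. It was lost when any BPA array at 4 hr, or array 1 or 3 at 24 hr, was left out (0.98 to 1.27), with normexp (0.05, adjusted p = 0.97) and with slide as a fixed block (0.83, adjusted p = 0.50).

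The effect of adding BPA to KBrO3 was measured directly by subtracting KBrO3 alone from co-exposure at the same hour. At 4 hr 7 of the 9 genes were called, Mmp2, Mmp3, Mmp13 and Timp1 higher and Mmp14, Timp2 and Timp4 lower, where 57.8% of all probes were called, 29.2% higher and 28.6% lower. Only Mmp3 was altered by the methods' threshold, against 4.99% of all probes. At 24 hr 5 genes were called, Mmp2, Mmp10, Mmp13, Timp2 and Timp3, all lower, against 46.7% of all probes with 23.1% higher and 23.7% lower, and Mmp10 and Timp3 were altered, against 5.8%. No tested gene was called higher in co-exposed cells at 24 hr. Mmp14 (0.22) did pass with slide as a random block (0.28, adjusted p = 0.013), as a fixed block (0.32, adjusted p = 0.0029) and without co-exposed array 3 (0.39, adjusted p = 9.6e-04). Its second probe went the other way, with a mean of 1.78 after co-exposure and 1.88 after KBrO3 alone. Mmp3 (0.04) passed with scaling to the median (0.21, adjusted p = 0.019). With slide as a random block Timp2 no longer passed at 4 hr (-0.13, adjusted p = 0.36), and its call there was also lost without any 1 array of KBrO3 alone or co-exposed array 1 or 3 (-0.15 to -0.18). The call of Mmp2 at 4 hr was lost without array 1 of KBrO3 alone or co-exposed array 2 (0.18 and 0.16), with scaling to the median (0.06, adjusted p = 0.55), with normexp (0.19, adjusted p = 0.68) and with all 24 arrays in 1 fit (adjusted p = 0.62). Within the slide that held 2 arrays of each treatment, the 24 hr differences were -1.33 for Mmp10, -1.16 for Timp3, -0.64 for Mmp13, -0.38 for Timp2 and -0.34 for Mmp2.

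The difference made by BPA changed from 4 to 24 hr for all 9 genes, where 54.3% of all probes were called for such a change, 25.5% up and 28.7% down, and for Mmp3, Mmp10 and Mmp13 it was altered, against 3.84%. This change contains the 4 hr difference, whose groups shared no slide, so that it cannot be told apart from slide. The BPA difference moved down for 7 genes and up for Mmp14 and Timp4, both of which were lower with BPA at 4 hr. The calls for Timp2 and Timp4 were lost with slide as a random block (adjusted p = 0.15 and 0.11), and that for Timp4 rests on co-exposed arrays at 24 hr on which it was not well above background. Mmp2 and Timp1 were lost with scaling to the median (-0.26 and -0.28), normexp (-0.51 and -0.61) and all 24 arrays in 1 fit (adjusted p = 0.30 and 0.16). With normexp Mmp3, Mmp10 and Timp3 were lost too (adjusted p = 0.13, 0.20 and 0.058), so that Mmp13 and Mmp14 alone were still called under it. Mmp2, Mmp3, Mmp13 and Timp1 went from higher at 4 hr to lower or not called at 24 hr.

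BPA alone gave few calls. At 4 hr Mmp13 and Mmp3 were called of the 9 genes, both higher, against 4.24% of all probes (2.83% higher and 1.41% lower), and at 24 hr only Mmp13, against 3.41% (1.39% higher and 2.02% lower). None passed the methods' threshold, which 0.066% and 0.0189% of all probes passed. The effect of BPA alone was then set against the effect of BPA added to KBrO3 in a fit of all 24 arrays. The difference is signed, so that a positive value can come from a rise with BPA alone or from a fall with BPA added. At 4 hr 3 genes were called, where 18.1% of all probes were called, 8.44% positive and 9.64% negative. Mmp13 rose in both settings, by 2.67 with BPA alone and 0.78 with BPA added (difference 1.89, adjusted p = 2.7e-06). Mmp14 was 0.08 with BPA alone, not called, and fell with BPA added, -0.91 (difference 0.99, adjusted p = 0.018), but its second probe gave a difference of 0.35 (adjusted p = 0.40). Timp3 was 0.57 and -0.19, neither called (difference 0.76, adjusted p = 0.014). At 24 hr 4 were called, all positive, against 4.71% of all probes, 2.6% positive and 2.11% negative. Mmp13 rose by 2.52 with BPA alone and fell with BPA added, -0.52 (difference 3.04, adjusted p = 2.7e-08). Mmp10 was 0.06 with BPA alone, not called, and fell with BPA added, -1.29 (difference 1.34, adjusted p = 1.8e-04). Timp3 was likewise not called with BPA alone, 0.21, and fell with BPA added, -1.15 (difference 1.36, adjusted p = 4.6e-04). Mmp3 was 0.69 and 0.04, neither called (difference 0.65, adjusted p = 0.032). With normexp background correction only Mmp13 at 24 hr of these 7 differences was still called. Only Mmp13 was altered, against 0.857% of all probes at 4 hr and 0.269% at 24 hr. With slide as a random block Mmp14 and Timp3 at 4 hr no longer passed (adjusted p = 0.23 and 0.11). The call of Mmp3 was lost without array 1 or 2 of either treatment at 24 hr in the first set or array 3 of BPA alone at 24 hr (0.56 to 0.65).

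**Figure D4:**
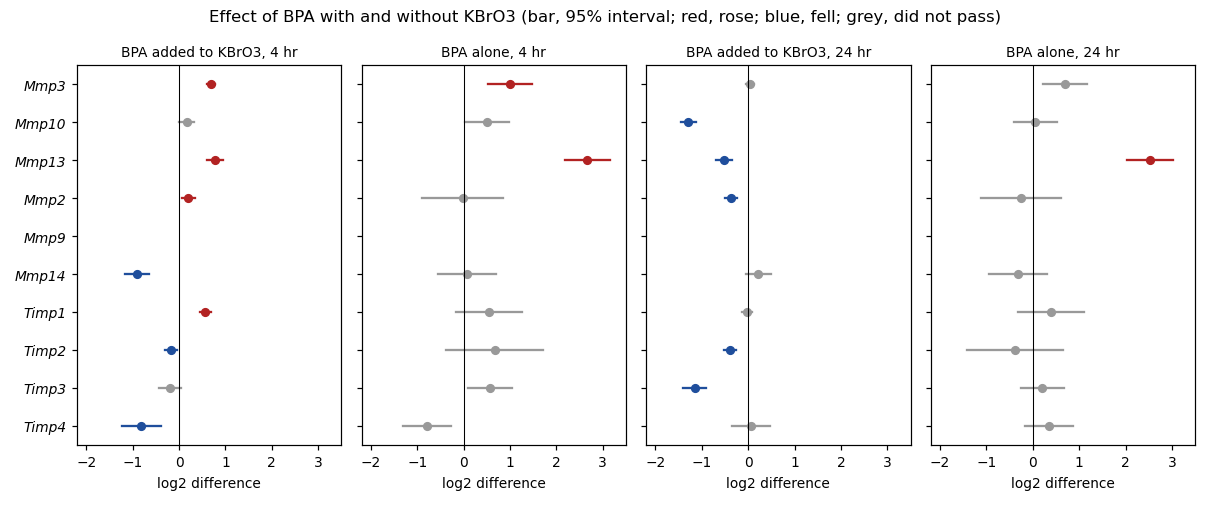
Log2 effect (horizontal axis, with 95% confidence intervals) of BPA added to KBrO3 and of BPA alone for each tested gene (vertical axis), by hour; red, blue and grey mark genes that rose, fell or did not pass. In the 24 hr panels the interval for Mmp13 lies below 0 with BPA added to KBrO3 and above 2 with BPA alone.

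The starting levels of the sets differed, which bears on this last comparison. Control levels in the first set were higher than in the second by 26.5-fold for Mmp13, 13.6-fold for Mmp3, 5.28-fold for Timp1 and 2.41-fold, 2.34-fold, 1.82-fold and 1.68-fold for Timp2, Timp3, Mmp14 and Mmp10, and lower by 1.23-fold for Mmp2 and 1.18-fold for Timp4. The difference for Mmp13 was exceeded in size by 0.0846% and that for Mmp3 by 0.265% of 27180 probes, whose median size was 0.47 on the log2 scale. The sets were extracted with different software versions, and their cultures, processing and starting state cannot be told apart. Mmp13 after BPA alone, at 0.52 or less, stayed below every control of the first set.

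Between 4 and 24 hr of KBrO3 alone all 9 genes fell, with log2 differences from -0.36 for Mmp10 to -2.16 for Timp4, where 75.3% of all probes were called, 33% higher and 42.3% lower, and 6 genes were altered, against 26.7%. The call of Mmp10 was lost with normexp (-0.33, adjusted p = 0.51) and with scaling to well detected spots (-0.17, adjusted p = 0.065). In co-exposed cells 8 of 9 fell, against 81.2% called, 32.8% higher and 48.4% lower. Of these 7 were altered, against 30.1% of all probes, and Mmp14 did not pass. The falls measured on both sides ran from -1.61 for Timp2 to -2.34 for Mmp2, and Timp4, not well above background at 24 hr, fell by at least 2.15-fold, a call lost with normexp (-0.71, adjusted p = 0.17). The median of all probes was itself -0.12 and -0.22 in these comparisons. No slide held both hours of KBrO3 alone or both hours of co-exposure, and for KBrO3 alone slide and time cannot be told apart.

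In the order of levels across the first set, neighbors often did not differ. For Mmp3 the controls and KBrO3 alone at 4 hr were alike within error, as were both 24 hr groups, and co-exposure at 4 hr stood above all. Timp1 had the same 2 groups at the bottom, with control, KBrO3 alone at 4 hr and co-exposure at 4 hr each separate above them. Mmp14 was highest in the controls and KBrO3 alone at 4 hr came next. Below them co-exposure at 4 hr, co-exposure at 24 hr and KBrO3 alone at 24 hr followed in this order, in which neighbors did not pass, although the last pair did with slide as a block. On the second probe of Mmp14 that pair lay in the opposite order, with means of 1.78 after co-exposure and 1.88 after KBrO3 alone. Over the 15 arrays, the 21 pairs of tested genes without Mmp10 and Mmp14 correlated with r between 0.673 and 0.986, most of all Mmp2 with Timp2. Mmp10 correlated with the others between -0.521 and 0.439, and Mmp14 between -0.521 and 0.797. These r describe 5 groups on shared slides and are not tests.

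Genes that were altered in some comparison were also set against the profiles of 14083 genes over the same 15 arrays. The 3 most like Mmp10 were Cers5, Prkar2a and C2cd2l (highest r = 0.992) and those most like Mmp3 were Itgb3, Spp1 and Ifnb1 (0.996). For Mmp2 they were Marchf3, Orm2 and Tgfbi (0.997) and for Mmp14 Ndufa13, Mtch1 and Fetub (0.994). Among the inhibitors they were Dlgap4, Slc25a29 and Pmvk for Timp1 (0.997), Med13l, Lman1l and Nlrp2 for Timp2 (0.994) and Vcl, Lama2 and Dysf for Timp3 (0.986) and Urah, Ubtd2 and Slc22a19 for Timp4 (0.976). The ranking for Mmp13 is not reported here. Itgb3 encodes the beta3 integrin subunit and Spp1 the matrix protein osteopontin, a ligand of that integrin.

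Other metalloproteinases were called in both directions. Of 15 on the array 10 could be tested in the first set, and after KBrO3 alone 2 rose and 4 fell at 4 hr and 2 rose and 3 fell at 24 hr, while co-exposure gave 2 and 4 at 4 hr and 2 and 5 at 24 hr. Among all probes 36.3% rose and 35.8% fell after KBrO3 alone at 4 hr, and 32.1% rose and 34% fell at 24 hr. After co-exposure 41.6% rose and 37% fell at 4 hr, and 32.9% rose and 37% fell at 24 hr. Mmp11, which encodes stromelysin-3, read 2.72 on average in the controls and -0.01 and -0.56 after KBrO3 alone and co-exposure at 4 hr, falls of 2.72 and 3.28 on the log2 scale. Unlike most of the 10 genes it was nearer control at 24 hr, with falls of 1.24 and 0.83. Mmp15, a membrane-anchored enzyme that was not well above background in the controls, exceeded its control at 24 hr by at least 1.78-fold with KBrO3 alone and by at least 6.28-fold with co-exposure. It is counted above among those that rose at 24 hr, but it could be tested only through these 24 hr groups, where it was high. Its values are therefore a description. Of 16 ADAM and ADAMTS proteases tested, 11 fell and 3 rose after KBrO3 alone at 4 hr (median -0.49, against 0.06 for all probes), and 13 fell and 1 rose after co-exposure at 24 hr (median -1.47, against -0.07). The aggrecanase gene Adamts5 fell by 3.41 on the log2 scale after co-exposure at 4 hr, and Adam19 rose by 2.83 after KBrO3 alone at 4 hr. Adamts5 was also the 1 of 17 tested ADAM and ADAMTS genes called after BPA alone at 4 hr, where 4.24% of all probes were called. It fell there by 1.41 (adjusted p = 0.010).

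The plasminogen system, which supplies plasmin as an activator of proenzymes, was mostly higher at 4 hr in cells given KBrO3, with or without BPA. Of 7 tested genes, 6 rose after KBrO3 alone and after co-exposure, where 36.3% and 41.6% of all probes rose. The other, Serpinb2, was not well above background in the controls and could be tested only through the groups where it was high, so that its levels, at least 2.18-fold and 3.89-fold above control, are a description. At 24 hr 4 were called higher and 2 lower after KBrO3 alone and 3 higher and 3 lower after co-exposure, Serpinb2 among the higher ones each time, where 32.1% and 32.9% of all probes rose and 34% and 37% fell. Plaur, the urokinase receptor, rose in all 4 groups that received KBrO3, by 3.30 and 1.33 after KBrO3 alone and 3.08 and 1.25 after co-exposure.

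Known inducers of metalloproteinase genes, cytokines and the AP-1, Ets and Runx factors, were mostly higher at 4 hr. After KBrO3 alone 11 of 13 rose (median 1.90), after co-exposure 10 rose and 1 fell (median 1.55), and after BPA alone 8 rose (median 1.24). Of all probes 36.3%, 41.6% and 2.83% rose in these comparisons, with medians of 0.06, 0.08 and -0.03. At 24 hr these counts were 4, 2 and 2, with 7 and 8 lower after KBrO3 alone and co-exposure, where 32.1%, 32.9% and 1.39% of all probes rose and 34% and 37% fell. Il6, a cytokine, rose by 5.66 on the log2 scale after BPA alone at 4 hr (adjusted p = 1.5e-04) and by 1.90 and 1.86 after KBrO3 alone and co-exposure. It was 2.52 above control after BPA alone at 24 hr and 1.95 and 1.47 below it after KBrO3 alone and co-exposure at 24 hr. Fosl1, an AP-1 subunit chosen here after its values were seen, rose by 4.46 after KBrO3 alone and by 1.59 after BPA alone at 4 hr. Whether these factors act on the 3 promoters printed above was not tested.

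**Figure D5:**
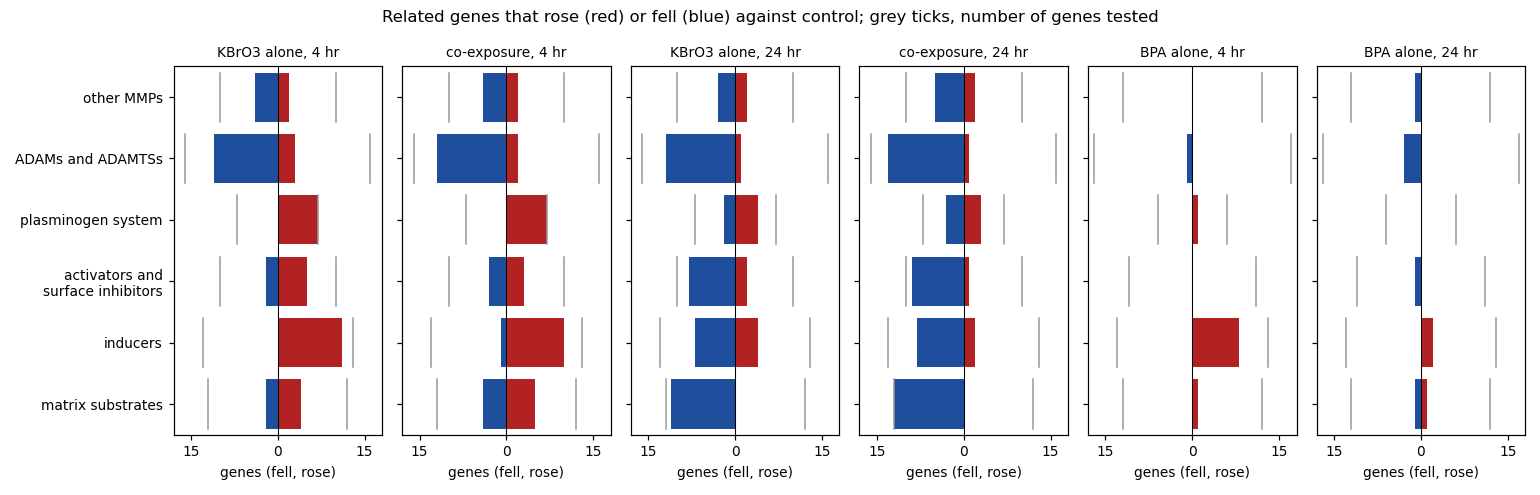
Number of genes (horizontal axis) of each related list (vertical axis) that rose (red, to the right) or fell (blue, to the left) in the 6 comparisons with control; grey ticks mark how many genes were tested. The plasminogen system and the inducers have bars to the right at 4 hr after KBrO3 alone and co-exposure, and matrix substrates have bars to the left at 24 hr.

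Genes for matrix proteins that these enzymes cut fell at 24 hr. Of 12 tested, 11 fell after KBrO3 alone (median -1.04) and 12 after co-exposure (median -1.34), and none rose. Of all probes 34% and 37% fell there, with medians of -0.02 and -0.07. At 4 hr 4 of the 12 rose and 2 fell after KBrO3 alone (median 0.04), where 36.3% of all probes rose and 35.8% fell. Col1a1 and Col1a2, the chains of type I collagen, fell by 1.15 and 1.29 after KBrO3 alone and by 1.63 and 1.65 after co-exposure. All 12 fibroblast markers, several of which are the same matrix genes, fell in both groups as well (medians -1.38 and -1.77). Of 10 activators and surface inhibitors, 8 and 9 fell at 24 hr, among them Lrp1, an endocytic receptor that clears metalloproteinases, by 1.42 and 1.45. Thbs1, which encodes thrombospondin-1, was 3.61 lower on the log2 scale after co-exposure at 24 hr and 2.12 lower there than after KBrO3 alone. BPA alone changed few of these genes, and the 1 matrix gene that rose was Spp1 at both times, by 1.05 after 4 hr (adjusted p = 0.045) and by 1.59 later (adjusted p = 0.012). Of all probes 2.83% and 1.39% rose in these comparisons. Spp1 also rose by 1.12 after co-exposure at 4 hr and was 0.74 higher there than after KBrO3 alone (adjusted p = 5.1e-07).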

How the data were processed

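RNA labeled with Cy3 was hybridized to 24 one-color Agilent mouse arrays. The authors deposited, for each spot, the fluorescence intensity values of Agilent Feature Extraction (version 12.0 per the labels, 9.5.3.1 and 12.0.0.7 per the file headers of the first and second set). The processed signal used here is corrected for background within an array and is not normalized between arrays. The values in the authors' table for the series were the same signal, with 1080432 of 1080432 equal.

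Intensities were converted to log2 and the 75th percentile over the 43379 spots other than controls was subtracted. Spots called outliers were left out (control 1 of the second set for Timp2), and spots of a probe were averaged. A probe was tested if detected above background on all 3 arrays of some group, which gave 27310 probes of the first set and 31806 of the second. Each set was fitted with limma 3.58.1 (lmFit, eBayes, two-sided) in R 4.3.3 with data.table (version 1.17.8), and files were read in Python 3.11.15 (pandas 2.3.3, numpy 2.4.6). BPA alone was compared with BPA added to KBrO3 in a fit of all 24 arrays over 27180 probes. The 14 comparisons were adjusted over all probes tested. The steps were tested on simulated data. An array gives no read depth, and 3 arrays per group limit the precision.

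The 10 genes were chosen by name, and they and the related lists were chosen with earlier results of these data known. A gene was represented by whichever of its probes was brightest on average over the 24 arrays. From each related list, the largest rise, the largest fall and the 2 genes of highest signal could be named, and others are said to have been chosen later. Lists were described by counts and medians, which include genes that were not well above background in 1 of the groups compared and whose direction can follow from the filter. Some genes that the rules would name are not reported here. The other marker lists (macrophage, epithelium, endothelium and neutrophil) gave summed signals between -3.33 and 1.66 on any array. Genes were matched to RefSeq of GRCm38.p6 by accession and then by symbol. Where a group had no array well above background, a fold is a bound against the lowest signal detected.

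Replicate numbers were not used to pair the samples in the main fits. Residuals of same-numbered arrays correlated with r averaging -0.029 (first set) and 0.0020 (second set, from -0.38 to 0.65 over 9 pairs). Whether the samples were paired is not known. Alternatives were 3 other ways of scaling, normexp background correction (offset 50, on mean raw signals of the first set and median raw signals of the second), the series table, outlier spots kept, no filter and a stricter filter, other samples in the fit, error weights, slide as a fixed or random block, the replicate block, the mean of a gene's probes, the methods' threshold and leaving out each array.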

Additional observations from a re-analysis of the deposited data

Results flagged for a closer look

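A difference in effect between times or between settings of BPA was found for every tested gene, by the test of the difference itself. Those that contain BPA added to KBrO3 at 4 hr cannot be told apart from slide, since these 4 hr groups shared none. For BPA added to KBrO3, the log2 effect at 24 hr minus that at 4 hr was -1.45 for Mmp10, -1.30 for Mmp13, -0.65 for Mmp3, -0.57 for Mmp2, -0.59 for Timp1, -0.23 for Timp2 and -0.96 for Timp3. It was 1.13 for Mmp14. For Timp4 the value was 0.87, but on the co-exposed arrays at 24 hr this probe was not well above background, so that the size of the change is not known. The signed log2 effect of BPA alone minus that of BPA added to KBrO3 was 1.89 for Mmp13, 0.99 for Mmp14 and 0.76 for Timp3 at 4 hr. At 24 hr it was 3.04 for Mmp13, 1.34 for Mmp10, 1.36 for Timp3 and 0.65 for Mmp3. Of these effects only those on Mmp13 were called for BPA alone, whereas Mmp14 at 4 hr and Mmp10, Mmp13 and Timp3 at 24 hr were called lower with BPA added. These last 7 differences set arrays of different sets against each other, whose controls differed in level.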

How the results depend on the processing

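Of 425 counts of called genes that were recomputed, 382 stayed within 1.5 times, and of 3688 single differences 3518 kept their side of the threshold, 136 lost a call and 27 gained one in the same direction. Another 7 that were called in at least 1 of both settings changed sign, as did 66 of the 3518, which were called in neither. The 7 were Timp2 after KBrO3 alone (-0.10) and after co-exposure at 4 hr (-0.15), Timp3 after KBrO3 alone (-0.0030) and after co-exposure at 4 hr (-0.12) and Mmp14 in co-exposed cells at 24 against 4 hr (0.23) with quantile normalization, and with scaling to the median the same Mmp14 difference (0.40) and the change of the BPA effect for Timp2 (0.084). Scaling also moved the median of all probes, for co-exposure at 24 against 4 hr from -0.22 to 0.24 with scaling to the median and to 0.02 with quantile normalization. Scaling to the median moved the share of higher calls from 47.1% to 68.2% for co-exposure at 24 hr and from 49.4% to 73.8% for co-exposure against KBrO3 alone at 24 hr. The cause of these shifts was not tested.

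With the methods' threshold, calls numbered 2 for KBrO3 alone and 4 for co-exposure at 4 hr, 1 and 2 for co-exposure against KBrO3 alone at 4 and 24 hr, and 3 for the change of that difference with time. They numbered 0 for BPA alone at 4 hr, at 24 hr and between these times, and 1 at each time for BPA alone against BPA added. With normexp background correction, calls numbered 4 and 2 for co-exposure against KBrO3 alone at 4 and 24 hr, 2 for the change of that difference, 0 for each of the 3 comparisons of BPA alone, and 0 and 1 for BPA alone against BPA added at 4 and 24 hr. With all 24 arrays in 1 fit, which pools the spread of both sets, they were 3 for KBrO3 alone and 5 for co-exposure at 4 hr, 3 for co-exposure against KBrO3 alone at 24 hr, and 5, 2 and 3 for BPA alone at 4 hr, at 24 hr and between them. The calls gained for BPA alone were Mmp10, Timp3 and Timp4 at 4 hr, Mmp3 at 24 hr, and Mmp10 and Timp2 between them. Scaling to the median gave 3 calls for KBrO3 alone at 4 hr and 1 for BPA alone at 4 hr, and the latter also had 1 call with no filter or with only the arrays compared. Slide as a fixed block gave 0 calls in each of the 3 comparisons of BPA alone, and slide as a random block 1 for BPA alone against BPA added at 4 hr. Apart from the methods' threshold, the share of all probes called under each alternative is not set beside the counts in this section. A change in these counts is therefore not a result about these genes.

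With the replicate block, BPA alone had 1 call at 4 hr and 0 between the times, and no other count moved by over 1.5 times. Leaving out each array gave 4 to 6 calls for KBrO3 alone at 4 hr and 9 at 24 hr, 6 to 8 and 9 for co-exposure, 5 to 8 and 5 to 6 for co-exposure against KBrO3 alone, and 8 to 9 for the change of that difference. It gave 9 and 8 for 24 against 4 hr of KBrO3 alone and of co-exposure, 1 to 2 and 1 for BPA alone at 4 and 24 hr, 0 to 1 between them, and 3 to 4 and 3 to 5 for BPA alone against BPA added at 4 and 24 hr. The change of the BPA effect for Timp2 was lost without any 1 of 8 of the arrays at 4 and 24 hr (-0.17 to -0.24). Without control 2 of the second set, BPA alone differed from BPA added for Timp1 at 24 hr (0.77) and for Mmp3 at 4 hr (0.48). Signal over background limited Mmp9 and Timp4, and the larger spread of the second set limited what could be called for BPA alone.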
